A study of Arabidopsis thaliana with 11 samples.

Results

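The amiR-NGA knock-down was examined in Arabidopsis thaliana inflorescences, as the 2 arrays of plants titled miR-NGA set against the 7 arrays titled wild type, 9 of the 11 arrays of the series. Members were taken by their titles, without regard to any measured value. The knock-down plants carry a transgene that the labels write 35S:miR-NGA and the design text 35S:amiR-NGA164a. It puts an artificial microRNA against NGA1 to NGA4 under the 35S promoter, a cauliflower mosaic virus promoter that is active in most plant tissues and so is not limited to the cells where the targets are normally expressed. The reference plants are of the wild-type genotype of the same ecotype, Ler (Landsberg erecta), which carries the erecta mutation in every group. The labels give both groups as 30 days after sowing, with tissue holding flowers of stage 12 and younger. The remaining 2 arrays are of the nga quadruple mutant, which carries the alleles nga1-1 and nga2-1 together with nga3-1 and nga4-1 in the same ecotype, and served as a further point of comparison. The labels of wild-type replicates 2, 3 and 4 note long days, and no other array carries a day-length note. They do not say how many transgenic lines or plants were sampled, nor do they tie replicates to different plantings, so the p-values rest on a spread between samples that may be technical only.

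NGATHA proteins are plant transcription factors with a B3 DNA-binding domain that act redundantly. In Arabidopsis they are known for directing the formation of the style and stigma at the top of the gynoecium, and for limiting the lateral growth of leaves and floral organs. An artificial microRNA is built on the backbone of a natural microRNA precursor, and its short mature strand guides the silencing machinery to complementary transcripts. Silencing can act by transcript cleavage, which lowers the signal on an array, and by repression of translation, which need not.

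Values are log2 expression values on the GC-RMA scale, which ran from 2.61 to 14.37 over the table and has no true zero. A probe set was called where the limma test gave an adjusted p under 0.05 over all 17910 probe sets kept. Correlation across probe sets was 0.987 between the amiR-NGA replicates and averaged 0.971 between amiR-NGA and wild-type arrays (0.943 to 0.985), against 0.975 between wild-type arrays. The actin control was 1.25 and 1.09 higher at its 3-prime than at its 5-prime end on amiR-NGA replicates 1 and 2, against 2.05 and 2.104 on wild-type replicates 1 and 2 and 1.14 to 1.31 on the other 5 wild-type arrays. Markers of anther and tapetum (4 kept of 12 listed) were present in both groups, with summed linear values of 5128 and 4942 on the amiR-NGA arrays, against 4027 to 6205 on the wild-type arrays. That sum rests mostly on the brightest member, AT5G07230, at 12.14 and 12.05 in amiR-NGA, against 11.738 to 12.455 in wild type. Pollen markers (10 kept of 20) summed to 1156 and 919.5 on the amiR-NGA arrays, against 821.5 to 1260 on the wild-type arrays. Such sums weigh bright members most. On amiR-NGA replicate 1 the dimmer PLIM2a, ACT12, AGL104 and AGL66 lay above all wild-type arrays, and AGL65 lay below them. On replicate 2 those genes lay inside the wild-type range. Root markers EXPA7 and EXPA18 lay at 3.62 to 4.68 on the amiR-NGA arrays, against 3.70 to 5.31 on the wild-type arrays, in the low part of the scale. No floral homeotic gene of the 11 listed matched a probe set of 1 gene, and the 1 meristem gene that matched was below the low-value limit, so those identities were not checked here.

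The targeted genes were examined first, as a check of the labels. NGA4 (AT4G01500) had 4.73 and 4.84 on the amiR-NGA arrays, against a lowest, median and highest value of 5.89, 6.07 and 6.54 on the wild-type arrays. NGA3 (AT1G01030) had 4.66 and 4.297 on the amiR-NGA arrays, against 5.21, 5.68 and 5.84 on the wild-type arrays. For both genes the groups did not overlap. NGA4 fell by 1.34 on the log2 scale (SE 0.16, adjusted p = 0.00452), which is 2.53-fold. NGA3 fell by 1.13 (SE 0.17, adjusted p = 0.0105), which is 2.19-fold. NGA4 was called against wild-type replicates 1 to 4 alone and against replicates 5 to 7 alone. NGA3 was called only against replicates 5 to 7. On the quadruple mutant arrays NGA4 read 4.51 and 4.45 and NGA3 read 4.06 and 4.0998. The amiR-NGA mean was 0.31 above the quadruple mutant mean for NGA4 and 0.40 above it for NGA3, and neither difference passed the test (adjusted p = 0.788 and 0.739). In bulk tissue, less RNA per cell and fewer cells of a type cannot be told apart, here and below.

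NGA2 (AT3G61970) was not lower in the knock-down. It had 5.34 and 5.47 on the amiR-NGA arrays, against 5.19, 5.33 and 5.52 on the wild-type arrays, and the amiR-NGA values lay inside the wild-type range. The log2 difference was 0.06 (SE 0.12, adjusted p = 0.844). The quadruple mutant arrays read 4.68 and 4.77 for NGA2, below both amiR-NGA arrays. The amiR-NGA minus quadruple mutant difference of 0.68 (SE 0.15) had an adjusted p of 0.245. Transcript level on these arrays says nothing of how much NGA2 protein was made.

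NGA1 (AT2G46870) did not read alike on the arrays labelled wild type. It had 5.02 and 4.88 on the amiR-NGA arrays, against 5.65, 5.60, 5.99 and 5.85 on wild-type replicates 1 to 4 and 10.50, 11.003 and 10.51 on wild-type replicates 5 to 7. Both amiR-NGA arrays were below every array labelled wild type, and these fell into widely separated values. Against all 7 of them the log2 difference was -2.92 with an SE of 1.502 (adjusted p = 0.449). Against replicates 5 to 7 alone it was -5.72 (SE 0.20, adjusted p = 0.000271), and against replicates 1 to 4 alone -0.82 (SE 0.18, adjusted p = 0.110). On the quadruple mutant arrays NGA1 read 6.95 and 6.50, above wild-type replicates 1 to 4 and below replicates 5 to 7. Whether the nga1-1 allele lowers the transcript that this probe set reads was not tested. The source of the split among the wild-type arrays was not tested either. The controls are therefore called the arrays labelled wild type, and values against each part of them are given below for some genes.

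**Figure D1:**
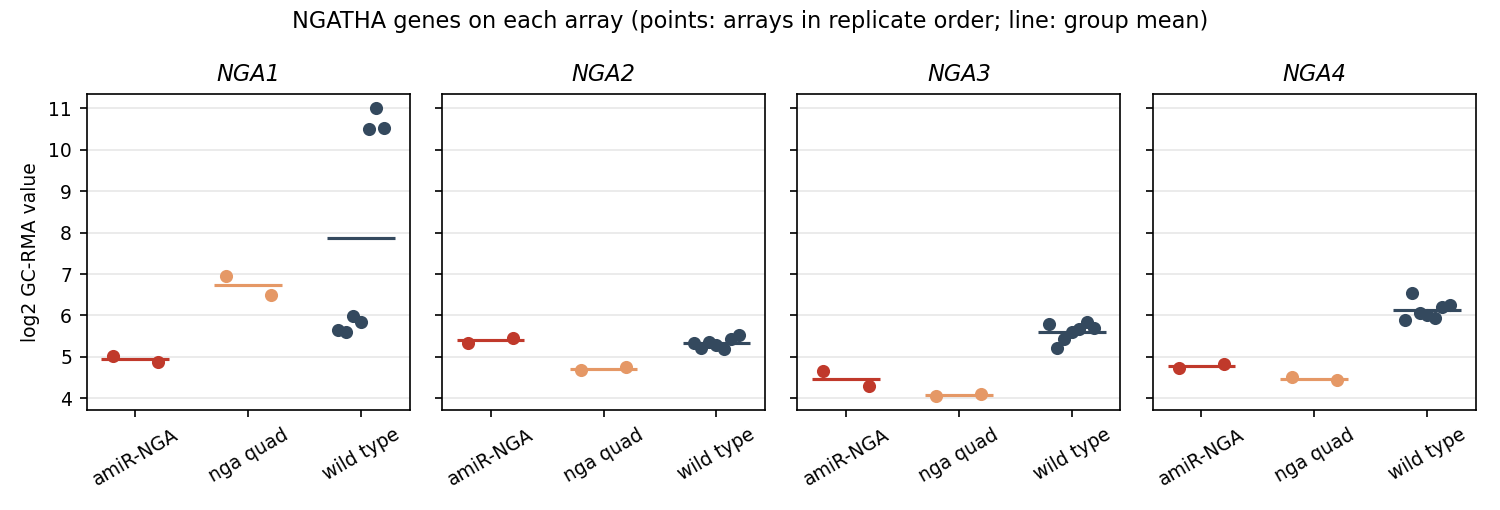
Each point is the log2 GC-RMA value (vertical axis) of 1 array for NGA1, NGA2, NGA3 and NGA4, in amiR-NGA (red), the nga quadruple mutant (orange) and the arrays labelled wild type (blue), in replicate order within a group; lines are group means. Both amiR-NGA arrays lie below all wild-type arrays for NGA1, NGA3 and NGA4 and among them for NGA2, and NGA1 reads 10.50 to 11.003 on only 3 of the 7 wild-type arrays.

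Most called probe sets were lower in the knock-down. Of the 17910 probe sets, 167 were called, which is 0.932%: 21 higher (0.117%) and 146 lower (0.815%) in amiR-NGA. Among the called probe sets 76 stood for 1 gene, 11 of them higher and 65 lower, 3 stood for several genes and 88 were not listed in the annotation and stay unnamed. The median called fall was -1.07 and the median called rise 0.98 on the log2 scale. The amiR-NGA replicates differed by a median of 0.128 over all kept probe sets and 0.171 over the called ones, and the median wild-type SD was 0.237. In all 167 cases both amiR-NGA arrays lay beyond every wild-type array, which held for 18.3% of all kept probe sets. Over all kept probe sets the balance was the other way, with 1788 above and 1497 below all wild-type arrays. Probe sets called lower were brighter in the controls, with a median wild-type mean of 8.05, while those called higher had 5.23 and all kept probe sets 6.99. The mean in amiR-NGA was under 5, near the floor of the scale, for 29 of the 146, so that those falls may be understated.

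The number of calls rested on both knock-down arrays and varied with the controls. It was 5 without either amiR-NGA array, 78 without wild-type replicate 5 and 88 without wild-type replicate 3. All 167 had the same sign against wild-type replicates 1 to 4 and against replicates 5 to 7. With the fit confined to each part, 62 and 38 of them were called again, 29 in both. Of the 37 named genes called, 10 and 11 were called again, and 8 in both (NGA4, HPR, AT5G17540, AT3G28270, AT4G37560, AT4G01460, AT5G43450 and AT3G19030). AT1G65490 and AT2G33850 were called only against replicates 1 to 4, and NGA3, AT5G47610 and AT1G51805 only against replicates 5 to 7. The rest of the 37, AT1G22890 among them, were called against neither part. The calls had a median size of 1.04 against replicates 1 to 4 and 1.02 against replicates 5 to 7.

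**Figure D2:**
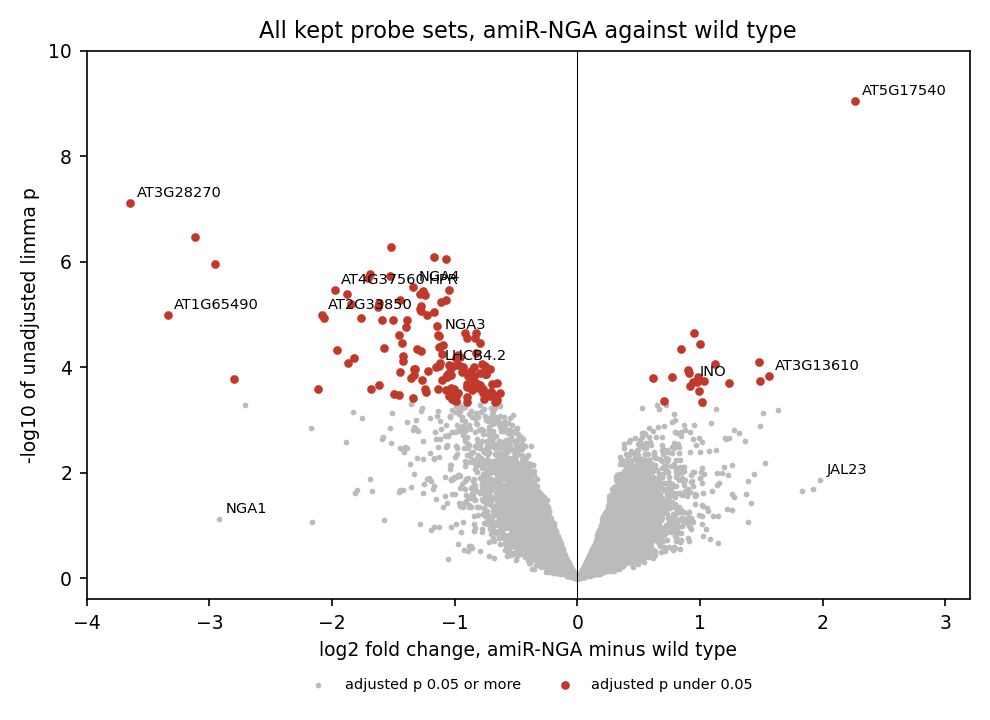
Each point is 1 of the 17910 kept probe sets, with its log2 fold change in amiR-NGA minus wild type (horizontal axis) and the -log10 of its unadjusted limma p (vertical axis); red points have an adjusted p under 0.05. The 146 red points on the left outnumber the 21 on the right, AT5G17540 and AT3G28270 stand highest, and NGA1 has a large difference without passing.

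The largest rise was that of AT5G17540. It had 6.49 and 6.52 on the amiR-NGA arrays, against 4.13, 4.19 and 4.43 on the wild-type arrays, which all lie near the floor. AT5G17540 rose by 2.27 on the log2 scale (SE 0.13, adjusted p = 1.63e-05), or 4.81-fold. The quadruple mutant arrays read 7.09 and 7.44, higher than the amiR-NGA arrays, but the difference of -0.76 did not pass the test (adjusted p = 0.216). Against wild-type replicates 1 to 4 its log2 fold change was 2.21 and against replicates 5 to 7 it was 2.34, and its call was kept under every alternative tried.

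The other rises were smaller. AT3G13610, which RefSeq lists with the synonym F6'H1, an enzyme of coumarin synthesis, had 7.85 on both amiR-NGA arrays, against 5.70, 6.38 and 6.73 on the wild-type arrays. It rose by 1.56 (SE 0.28, adjusted p = 0.0267). AT5G18840 had 7.47 and 6.83 in amiR-NGA, against 5.18, 5.65 and 6.13 in wild type, a rise of 1.49 (SE 0.28, adjusted p = 0.0293). AT3G62040 had 6.37 and 5.63 in amiR-NGA, against 4.18, 4.52 and 5.03 in wild type, a rise of 1.48 (SE 0.25, adjusted p = 0.0224). Non-overlap of the groups was a condition for naming a gene by size of change. The adjusted p of these 3 genes was 0.0627 to 0.0963 against wild-type replicates 1 to 4 (AT5G18840 lowest, AT3G13610 highest). Against replicates 5 to 7 it was 0.0705 to 0.157 (AT3G13610 lowest, AT5G18840 highest). The remaining rises among genes known by locus were AT5G47800 with 1.12, AT3G15870 with 1.03, AT5G16030 with 0.99, AT3G13662 with 0.98, AT1G64380 with 0.92 and AT1G50110 with 0.91. Their adjusted p lay between 0.0231 for AT5G47800 and 0.0365 for AT5G16030.

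INO (AT1G23420, INNER NO OUTER), a YABBY transcription factor that directs growth of the outer integument of the ovule, was the only rise with a gene symbol. It had 5.91 and 5.42 on the amiR-NGA arrays, against 4.48, 4.69 and 4.98 on the wild-type arrays. The groups did not overlap, which held for all 167 called probe sets, and all values lie in the low part of the scale. INO rose by 0.95 (SE 0.18, adjusted p = 0.0306), or 1.93-fold. It read 5.66 and 5.33 in the quadruple mutant. Against wild-type replicates 1 to 4 the fold change was 0.95 (adjusted p = 0.112) and against replicates 5 to 7 it was 0.94 (adjusted p = 0.127). INO is also 1 of the 2 ovule markers kept, of 7 listed, and the other, SPL (AT4G27330), also an anther marker, which starts the formation of spores in anthers and ovules, had 7.48 and 7.85 in amiR-NGA, against 6.73, 7.54 and 7.64 in wild type, a difference of 0.33 (SE 0.27) that did not pass. INO and SPL together summed to 238 and 273.6 on the amiR-NGA arrays, against 128.1 to 228.9 on the wild-type arrays. That sum holds INO itself and weighs the brighter SPL most, so it is no separate measure of ovule tissue. The part of ovule number or stage in the INO value was not tested. The other organ polarity genes kept, YAB3, YAB5 and PHV, differed by 0.24, 0.30 and 0.19 and did not pass.

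The largest fall was that of AT3G28270. It had 4.21 and 3.80 on the amiR-NGA arrays, against 6.74, 7.75 and 8.16 on the wild-type arrays, a gap of more than 2 log2 units between the groups. It fell by 3.64 (SE 0.31, adjusted p = 0.000692), or 12.5-fold. The quadruple mutant arrays read 3.77 and 4.55, on either side of the amiR-NGA values. The log2 fold change was -3.79 against wild-type replicates 1 to 4 and -3.45 against replicates 5 to 7, and with AT5G17540 it was the only named gene whose call was kept under every alternative.

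AT1G65490 had 4.46 and 4.87 on the amiR-NGA arrays, against 7.21, 7.95 and 8.86 on the wild-type arrays. It fell by 3.34 (SE 0.46, adjusted p = 0.00616). The quadruple mutant arrays lay apart from each other at 5.02 and 6.75, both above amiR-NGA (difference -1.22, adjusted p = 0.693). AT1G22890 had 4.203 and 5.02 in amiR-NGA, against 6.56, 7.24 and 8.96 in wild type, and fell by 2.80 (SE 0.52, adjusted p = 0.0282). Its neighbour AT1G22885, with no listed gene between, fell as well, with 6.84 and 6.97 in amiR-NGA, against 7.54, 7.79 and 7.92 in wild type.

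AT2G33850 passed the test against wild type in the knock-down and did not pass it in the quadruple mutant. It had 3.95 and 4.39 on the amiR-NGA arrays, 5.64 and 6.27 on the quadruple mutant arrays, and 5.71, 6.28 and 6.89 on the wild-type arrays. The log2 fold change against wild type was -2.08 (SE 0.29, adjusted p = 0.00616), while that of the quadruple mutant was -0.30 (SE 0.29, adjusted p = 0.612). The direct difference between the genotypes was -1.79 (SE 0.36) with an adjusted p of 0.162, the lowest among the 37 named genes called, so a difference between the genotypes was not established. AT1G51805 gave a similar set of values, with 4.35 and 4.34 in amiR-NGA, 5.42 and 5.47 in the quadruple mutant, and 4.89, 5.69 and 6.09 in wild type. AT1G51805 fell by 1.35 in the knock-down (SE 0.25, adjusted p = 0.0275), and its difference between the genotypes was -1.10 (SE 0.31, adjusted p = 0.556).

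AT4G37560 had 4.21 and 4.70 on the amiR-NGA arrays, against 6.13, 6.33 and 7.12 on the wild-type arrays, and fell by 1.97 (SE 0.24, adjusted p = 0.00452). AT5G43450 had 4.08 and 4.102 in amiR-NGA, against 5.25, 5.62 and 6.09 in wild type, and fell by 1.62 (SE 0.22, adjusted p = 0.00536). Together with NGA4 these were the named genes that lost their call only when an amiR-NGA array was left out. AT4G01460 lies on chromosome 4 near NGA4 with 4 listed genes between them. It had 5.25 and 5.26 in amiR-NGA, against 6.73, 6.82 and 7.58 in wild type, and 5.14 and 5.51 in the quadruple mutant. AT4G01460 fell by 1.77 (SE 0.25, adjusted p = 0.00662).

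The other falls among the 16 largest of probe sets of 1 gene were AT5G47610 with -1.87, AT1G29660 with -1.69, AT4G33666 with -1.62, AT3G19030 with -1.58, AT1G64500 with -1.45, AT4G28290 with -1.45 and AT1G04350 with -1.43. Their adjusted p lay between 0.0105 for AT4G28290 and 0.0394 for AT1G64500. A further 39 genes known by locus were called, all of them lower, with log2 fold changes of -1.33 to -0.68 and adjusted p of 0.00269 to 0.0457. Adjacent loci were called together for AT1G22885 with AT1G22890 and for AT4G33660 with AT4G33666. By chromosome, 1.1% of the tested single-gene probe sets of chromosome 1 were called, and 0.583% to 0.69% of those of each of the other 4 chromosomes.

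**Figure D3:**
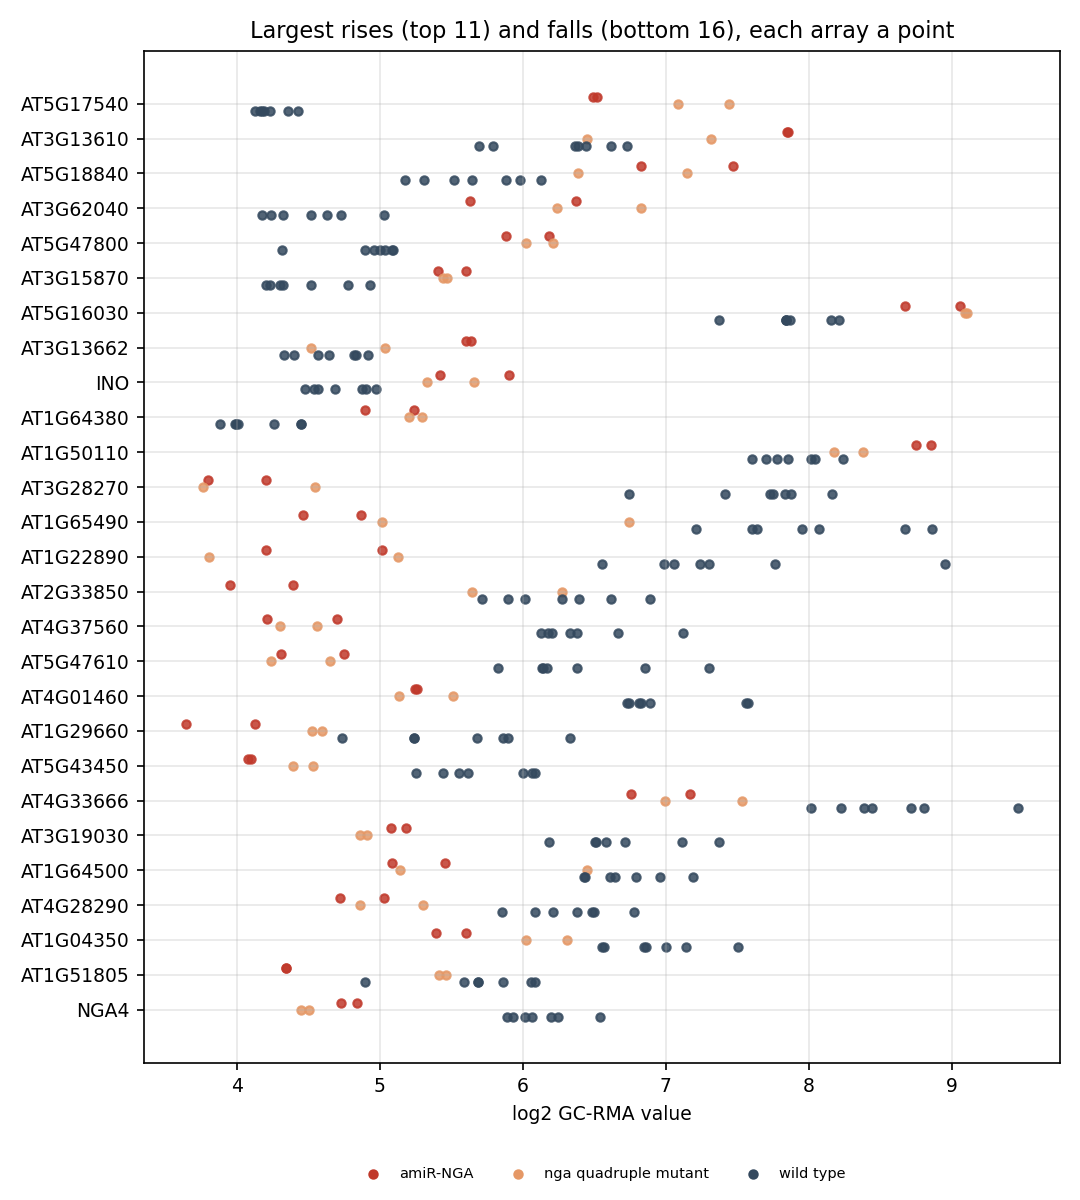
Each point is the log2 GC-RMA value (horizontal axis) of 1 array, for amiR-NGA (red), the nga quadruple mutant (orange) and the arrays labelled wild type (blue). Only probe sets of 1 gene are shown, with their 11 called rises above and their 16 largest called falls below. The red points lie beyond all blue points for every gene shown, as the choice of genes required. For AT1G51805 the orange points lie within the range of the blue ones.

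Among nuclear genes of photosynthesis, LHCB4.2, PRK and SBPASE fell in the knock-down. Kept single-gene probe sets stood for 6 of the 25 genes listed, of which these 3 were called and the other 3 did not pass. Both amiR-NGA arrays lay below every wild-type array for all 6, which held for 8.36% of all kept probe sets. The median log2 fold change of the 6 was -0.77, beside 0.0085 for all kept probe sets. LHCB4.2 (AT3G08940), a CP29 antenna protein of photosystem II, had 9.86 and 10.02 in amiR-NGA, against 10.65, 11.05 and 11.61 in wild type. It fell by 1.13 (SE 0.20, adjusted p = 0.0235). Its paralogs LHCB4.3, at -0.86 (adjusted p = 0.0736), and LHCB4.1, at -0.45 (adjusted p = 0.268), did not pass.

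Enzymes of carbon fixation gave smaller differences at high signal. PRK (AT1G32060), phosphoribulokinase, which makes the acceptor for carbon dioxide in the Calvin-Benson cycle, had 10.81 and 10.87 in amiR-NGA, against 11.36, 11.78 and 11.89 in wild type. PRK fell by 0.84 (SE 0.15, adjusted p = 0.0235). SBPASE (AT3G55800), sedoheptulose-bisphosphatase of the same cycle, had 10.39 and 10.50 in amiR-NGA, against 10.91, 11.13 and 11.27 in wild type. SBPASE fell by 0.66 (SE 0.14, adjusted p = 0.0459). RCA, the activase of Rubisco, had 12.50 and 12.42 in amiR-NGA, against 12.83, 13.20 and 13.41 in wild type, a difference of -0.69 that did not pass (SE 0.15, adjusted p = 0.0671). The 3 calls ended against wild-type replicates 1 to 4 alone and against replicates 5 to 7 alone. There, LHCB4.2 had -1.22 (adjusted p = 0.0538) and -1.01 (adjusted p = 0.0756), PRK had -0.86 (adjusted p = 0.0582) and -0.82 (adjusted p = 0.120), and SBPASE had -0.62 (adjusted p = 0.139) and -0.71 (adjusted p = 0.140).

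HPR (AT1G68010), the peroxisomal hydroxypyruvate reductase of photorespiration, had the largest fall among the called genes of photosynthesis and photorespiration. It had 10.40 and 10.66 on the amiR-NGA arrays, against 11.55, 11.79 and 12.06 on the wild-type arrays, and 10.43 and 10.72 on the quadruple mutant arrays. HPR fell by 1.26 (SE 0.16, adjusted p = 0.00452), or 2.40-fold. It was called against wild-type replicates 1 to 4 (-1.31, adjusted p = 0.0281) and against replicates 5 to 7 (-1.197, adjusted p = 0.048). Of the 14 photorespiration genes listed 3 were kept, and only HPR was called. AT1G80380 was below all wild-type arrays, with a difference of -0.63 (adjusted p = 0.175), and AT1G11860 overlapped them, with a difference of -0.31 (adjusted p = 0.575).

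The chloroplast NDH complex returns electrons from photosystem I to the plastoquinone pool, and its subunits are encoded in both the nucleus and the plastid. Of the 3 nuclear subunits kept, of 5 listed, NdhN was called. NdhN (AT5G58260) had 7.13 and 7.36 in amiR-NGA, against 7.95, 8.17 and 8.73 in wild type, and fell by 1.05 (SE 0.21, adjusted p = 0.0406). Its call ended in 15 of 25 alternatives, among them the fit of 9 arrays alone, each part of the controls (adjusted p = 0.0555 against wild-type replicates 1 to 4 and 0.122 against replicates 5 to 7) and leaving out any 1 of wild-type replicates 2 to 6. NdhL with -1.14 (adjusted p = 0.0713) and NdhS with -0.77 (adjusted p = 0.0978) did not pass, although both amiR-NGA arrays lay below all wild-type arrays for each. Among plastid-encoded genes 66 of 69 were kept and none was called by limma. Of the 66, 15 had an unadjusted p under 0.05, beside 12.6% of all kept probe sets. Their median log2 difference was -0.35, 61 had a lower mean in amiR-NGA and 14 lay below all wild-type arrays, beside 8.36% of all kept probe sets. The 9 ndh genes of the plastid had lower means in each case, 6 of them below all wild-type arrays, with a median of -0.78 and a lowest adjusted p of 0.0524.

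**Figure D4:**
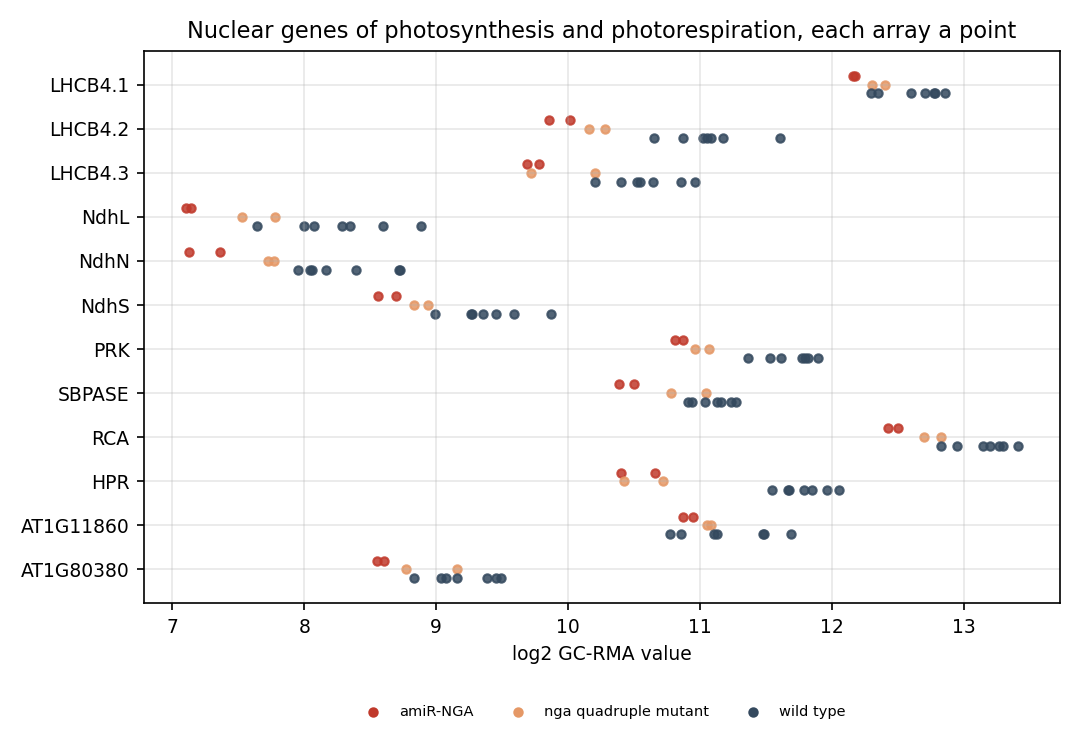
Each point is the log2 GC-RMA value (horizontal axis) of 1 array for nuclear genes of photosynthesis, the NDH complex and photorespiration, in amiR-NGA (red), the nga quadruple mutant (orange) and the arrays labelled wild type (blue). The red points lie below all blue points for every gene shown except AT1G11860.

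The remaining called genes with a symbol were all lower. AOR (AT1G23740), an alkenal/one oxidoreductase that removes reactive carbonyls in chloroplasts, had 9.14 and 9.42 in amiR-NGA, against 9.78, 10.21 and 10.34 in wild type. AOR fell by 0.85 (SE 0.16, adjusted p = 0.0308). ICL (AT3G21720), the isocitrate lyase of the glyoxylate cycle, had 5.04 and 5.19 in amiR-NGA, against 5.70, 5.90 and 6.24 in wild type. ICL fell by 0.81 (SE 0.16, adjusted p = 0.0342). PMEPCRF (AT5G53370), a pectin methylesterase of the cell wall, fell by 0.71 (SE 0.13, adjusted p = 0.0236), with 6.68 and 6.73 in amiR-NGA, against 7.29, 7.36 and 7.63 in wild type. P1R1 (AT5G57780) fell by 0.93 (SE 0.16, adjusted p = 0.0241). The calls of these 4 genes ended against either part of the controls alone.

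Genes linked to sugar transport and starch included values in both directions. Of the 4 kept members, of 12 listed, AT5G18840 rose, as given above. Of the large subunits of ADP-glucose pyrophosphorylase, the enzyme that feeds starch synthesis, only APL3 and APL4 were kept. Both lay above all wild-type arrays, which held for 9.98% of all kept probe sets. APL4 had 6.71 and 6.66 in amiR-NGA, against 4.83, 5.48 and 6.01 in wild type, and APL3 had 5.89 and 5.82, against 4.42, 4.97 and 5.53. Neither passed, with 1.204 for APL4 (adjusted p = 0.117) and 0.83 for APL3 (adjusted p = 0.157). SWEET11, a sucrose efflux transporter, lay below all wild-type arrays, with 6.90 and 7.64 in amiR-NGA, against 8.16, 8.63 and 9.03 in wild type. Its difference of -1.36 (SE 0.29) had an adjusted p of 0.0524, just over the threshold, and 6 of 25 alternatives called it. Among the 6 were the 9-array fit and the fits without either quadruple mutant array, which are not separate checks.

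Regulators of the style, auxin genes and organ growth genes gave no call by limma. At an unadjusted p under 0.05 stood 2 of the 8 auxin response genes and 1 of the 3 organ growth genes, and none of the 4 style or 3 auxin synthesis genes, beside 12.6% of all kept probe sets. The 4 style and stigma regulators kept, of 16 listed, were the basic helix-loop-helix factors SPT, ALC and CES and the SHI family member SHI, with log2 differences of -0.18, -0.09, 0.19 and -0.42 (adjusted p from 0.453 for SHI to 0.886 for ALC). SPT, which acts in carpel margin and transmitting tissue, had 6.35 and 6.45 in amiR-NGA, against 6.32, 6.65 and 6.78 in wild type, inside the wild-type range. The auxin synthesis enzymes YUC2, YUC4 and YUC6, flavin monooxygenases, had differences of -0.21, 0.07 and 0.15 (adjusted p = 0.773, 0.892 and 0.788). Among 8 auxin response genes WES1, which conjugates auxin to amino acids, had 9.26 and 9.54 in amiR-NGA, against 9.803, 10.15 and 11.22 in wild type (difference -0.96, SE 0.42, adjusted p = 0.375). GH3.9 of the same family lay above all wild-type arrays at 6.18 and 6.20, against 4.796, 5.39 and 6.02 (difference 0.75, adjusted p = 0.349).

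JAG, a zinc-finger factor that promotes growth of lateral organs, had 5.36 and 5.62 in amiR-NGA, against 4.43, 4.78 and 5.09 in wild type. The groups did not overlap, but the difference of 0.69 (SE 0.18) had an adjusted p of 0.112. Its paralog NUB, at -0.36, and the co-repressor SEU, at -0.34, overlapped wild type and did not pass (adjusted p = 0.428 and 0.478). Of the 7 B3 relatives of the NGATHA genes listed, AT3G11580 alone was kept, with 5.20 and 5.36 in amiR-NGA, against 5.12, 5.71 and 5.95 in wild type (difference -0.29, adjusted p = 0.607). A p above the threshold does not show that the levels were alike.

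Other groups held large differences with large standard errors, and none of those given here was called. JAL23, a jacalin-related lectin, had 7.25 and 7.53 in amiR-NGA, against 3.65, 5.74 and 7.19 in wild type, a difference of 1.98 with an SE of 0.69 (adjusted p = 0.255). THI2.1, a thionin of defence, differed by 1.38 (SE 0.54, adjusted p = 0.316), and PDF1.2, a jasmonate-responsive defensin, by 0.11 (adjusted p = 0.730). Among the 4 stress-linked genes kept, SIS differed by -1.40 (adjusted p = 0.137), the metallothionein MT1C by -1.199 (adjusted p = 0.157) and the linker histone HIS1-3 by -1.81 (adjusted p = 0.311). COR15A of the same list went the other way, at 0.49 (adjusted p = 0.490). CSLA01, a glucomannan synthase of the cell wall, differed by 1.19 and IRX15-L, which acts in xylan synthesis, by 1.00 (adjusted p = 0.202 and 0.248). IRX15, the only other cell wall gene kept, differed by 0.17 (adjusted p = 0.759). No member of the light and clock (2 kept), type-A cytokinin response regulator (2), flavonoid (3), anther (4), pollen (10) or root (2) lists was called by limma, and 1 of them, HYH of the light list, had an unadjusted p under 0.05 (difference -1.01, adjusted p = 0.242).

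**Figure D5:**
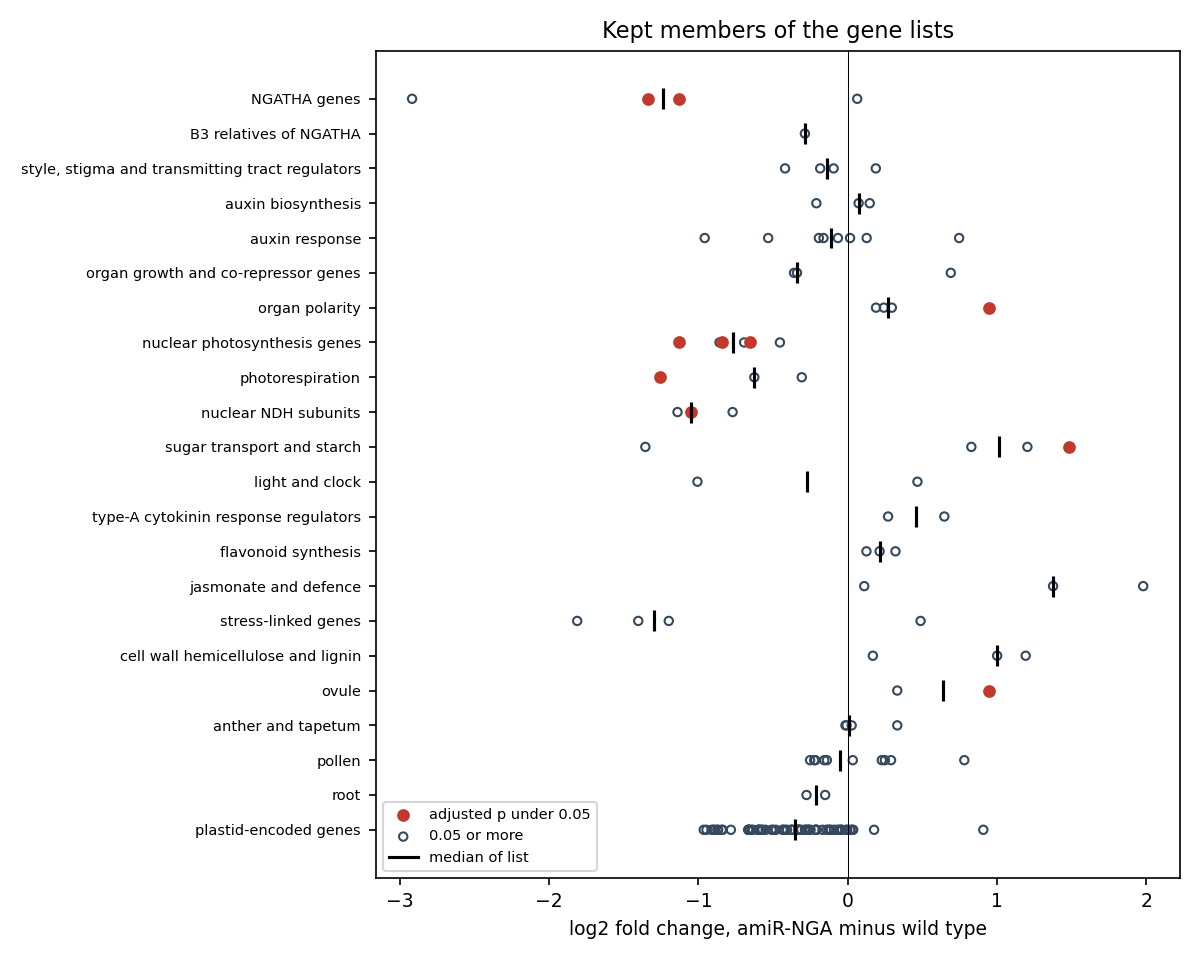
Each point is the log2 fold change in amiR-NGA minus wild type (horizontal axis) of 1 kept member of a gene list; filled red points have an adjusted p under 0.05, open points do not, and black bars are list medians. Called members sit in the NGATHA, organ polarity, ovule, photosynthesis, photorespiration, NDH and sugar lists.

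The knock-down and the quadruple mutant were compared directly. In the same fit 24 probe sets differed between amiR-NGA and the quadruple mutant, which is 0.134% of those tested, 18 lower and 6 higher in amiR-NGA. Of the 167 probe sets called against wild type, 55 had an unadjusted limma p under 0.05 here, a larger share than the 7.21% of all kept probe sets. The 167 were selected on the same amiR-NGA arrays, so that share is not independent of their selection. None of the 167 was among the 24 by limma. The count was 13 without amiR-NGA replicate 2, 14 without quadruple mutant replicate 1 and 179 without quadruple mutant replicate 2. HPR read 10.40 and 10.66 in amiR-NGA, against 10.43 and 10.72 in the quadruple mutant, and differed by -0.04 (SE 0.19, adjusted p = 0.974). LHCB4.2 differed by -0.29 (SE 0.25, adjusted p = 0.838) and SBPASE by -0.47 (SE 0.17, adjusted p = 0.650). AT3G13610 was 0.97 higher in amiR-NGA (SE 0.36, adjusted p = 0.662), with quadruple mutant values of 6.45 and 7.32, and AT3G13662 was 0.84 higher (SE 0.23, adjusted p = 0.527).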

How the data were processed

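The authors deposited log2 values of Affymetrix ATH1 arrays, computed with GC-RMA in R 2.7.2 and Bioconductor 2.2, per the submitters' processing notes and the series design text. GC-RMA subtracts a background predicted from probe sequence and pulls dim probe sets towards a floor, which compresses their fold changes. RNA was extracted from inflorescences with a column kit, per the labels' protocols. Array number limits the precision of every value.

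Of 22810 rows, 64 were control rows and were dropped, and 17910 of the remaining 22746 passed a filter at a log2 value of at least 4 on at least 4 arrays. In the platform annotation 13513 probe sets have 1 gene, 503 have several and 8730 are not listed. Names came from it and from a RefSeq gene table (TAIR10.1), which 13436 of the single-gene probe sets matched and in which 1551 carry a gene symbol rather than the locus. Probe sets of more than 1 gene were left unnamed.

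Testing used limma 3.58.1 in R 4.3.3 (lmFit and eBayes, two-sided) in 1 fit of all 11 arrays with 3 groups, because 2 arrays give little information on spread. P-values were adjusted by Benjamini-Hochberg over all kept probe sets, with a threshold of 0.05. The procedure was tested on simulated data. Standard errors are the moderated errors of the fit. Sums of marker lists are of values returned to the linear scale.

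The members and gene lists (24 lists) were chosen with earlier results of these data known, so no list is independent evidence, and lists are described by counts and medians only. Named genes were the 4 NGATHA genes, the largest called rises (up to 12) and falls (16) with both amiR-NGA arrays beyond all wild-type arrays, every called gene with a symbol, and list members. The few other loci named were chosen after their values were seen. The plastid list was taken by chromosome in the RefSeq table. Alternatives covered the arrays in the fit, filter, scaling, eBayes settings, array weights, replicate number, day-length note, parts of the controls, actin signal, a 2-fold limit and leaving out each array. For amiR-NGA against wild type, leaving out either quadruple mutant array gave the same counts as the 9-array fit. Counts of alternatives therefore include that result more than once.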

Additional observations from a re-analysis of the deposited data

Results flagged for a closer look

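Single wild-type arrays stood apart from the other 6 for 2 of the 39 named genes, by a test of the gap between the extreme array and its nearest neighbour. Such gaps arise by chance in about 1 of 20 groups. For AT5G47800, which rose in amiR-NGA, wild-type replicate 2 read 4.317, while the others lay between 4.90 and 5.096, so that the gap was 0.749 of the range. For AT1G51805, which fell, wild-type replicate 1 read 4.895, while the nearest array read 5.591 and the highest 6.09, a gap of 0.582 of the range. Both arrays also had the large actin difference given above, and a link between it and these values was not tested.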

How the results depend on the processing

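The comparison of amiR-NGA with wild type called 167 probe sets, and 149 to 166 under the 9-array fit, the other filters, median centring, quantile normalization and the robust trended eBayes. It called 1650 with array weights (634 higher and 1016 lower, or 61.6% lower beside 87.4%), 420 with the arrays of large actin difference left out, 96 with a 2-fold limit, 78 and 43 against wild-type replicates 1 to 4 and 5 to 7, and 48 and 35 against controls with and without the long-days note. Leaving out 1 array gave 5 to 212, with 5 for either amiR-NGA array, 78 for wild-type replicate 5 and 88 for wild-type replicate 3; the lone amiR-NGA array was then assumed to vary like the other groups. The comparison with the quadruple mutant called 24, but 45 with array weights, 13 and 12 with controls with and without the note, and 13 to 179 leaving out 1 array. Of the 37 named genes called, 10 and 11 passed against each part of the controls and 2 without either amiR-NGA array; the causes of these changes were not tested. None of the 37 named genes called changed sign. The alternatives gave 4210 values for 170 single genes, and most of these genes were not called to begin with. Of these values 3858 stayed on their side of the threshold and 78 gained a call. The 274 that lost a call all came from the 37 named genes called. The 39 further genes called were not among the 170.

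The labels do not pair replicate numbers, and deviations of same-numbered arrays correlated at 0.044 and -0.18 between amiR-NGA and wild type and at 0.285 between amiR-NGA and the quadruple mutant. With the replicate block the counts were 859 (538 higher and 321 lower) against wild type, where only replicates 1 and 2 share a number with amiR-NGA, and 2 against the quadruple mutant. Called counts in the lists ranged from 0 to 6 for photosynthesis. GC-RMA values near the floor limit the size of falls that can be seen.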

Other observations

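The amiR-NGA replicates differed from each other in some genes outside the calls. The linker histone HIS1-3 read 3.65 on amiR-NGA replicate 1 and 5.69 on replicate 2, against 4.95 to 7.66 on the wild-type arrays. Several pollen genes were higher on replicate 1. PLIM2a, an actin-binding LIM protein, read 6.42 and 4.76, against 4.28 to 5.97 on the wild-type arrays. The MADS factor AGL104 read 4.98 and 4.08, against 3.64 to 4.74. Of the 167 called probe sets, replicate 1 lay farther from the wild-type mean for 123 and replicate 2 for 44.

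Among the called probe sets without a listed gene, the largest falls had log2 fold changes of -3.12 and -2.95 and the largest rises 1.24 and 1.01. They were chosen after their values were seen.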
